A study of Canis lupus familiaris with 15 samples.

Results

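SNAI2, LOX, VIM, CDH2 and ZEB1, 5 genes of the passage from an epithelial to a mesenchymal state, were followed in MDCK cells, a dog kidney line (Madin-Darby canine kidney) that forms a polarised sheet on a porous filter. All probe sets that the array's annotation assigns to these symbols were taken, which gave 10 of the 42924 probe sets that are not controls: 1 each for SNAI2, LOX and VIM, 2 for CDH2 and 5 for ZEB1. A probe set is a group of short oligonucleotides read together as 1 value for a transcript. The arrays came from 4 groups of MDCK cells kept on Transwell filters for 7 days in MEM with serum. The HGF + UO group (3 arrays) received hepatocyte growth factor (HGF) at 100 ng/ml for 24 h together with a compound spelled UO126 at 10 uM, and the HGF + PD group (4 arrays) received the same HGF beside PD09859, as the labels spell it, at 50 uM. The HGF group (4 arrays) received HGF alone, and the Control group (4 arrays) medium alone. By the title of the series both compounds block MAPK signalling, and their spellings come close to those of MEK inhibitors in wide use. Inhibitor without HGF was not analysed here, so an effect of a compound that does not need HGF cannot be told apart from one on the HGF response.

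HGF binds the receptor tyrosine kinase MET and loosens the contacts of MDCK cells. One branch of its signal runs through RAS, RAF and MEK to the kinase ERK, and MEK inhibitors block that branch. SNAI2 (also called Slug) and ZEB1 are zinc-finger repressors that bind E-box sequences in the promoters of epithelial genes such as the E-cadherin gene CDH1. VIM encodes vimentin, the intermediate filament of mesenchymal cells, which cultured MDCK cells also make beside their keratins. CDH2 encodes N-cadherin, the adhesion protein that often replaces E-cadherin in mesenchymal cells. LOX encodes lysyl oxidase, a secreted enzyme that cross-links collagen and elastin.

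The genes were chosen on these arrays, with the HGF against Control differences of SNAI2 and LOX already known. Every difference of a member gene that uses the HGF or the Control arrays is therefore given as a description, with the standard error (SE) of the fit and no p-value. The difference between HGF + UO and HGF + PD uses the mean of neither group and was tested, with the spread estimated over all 15 arrays. The members were chosen with earlier results of these data known, so this test may not be independent of their choice. Values are log2 of the deposited intensities, and a level of 4 on at least 3 arrays was required for the tests. Of the 10 probe sets 4 passed this filter, 1 each for SNAI2, LOX, VIM and CDH2. The other CDH2 probe set and all 5 of ZEB1 did not, so 4 of 5 genes were measured. LOX and CDH2 passed through their HGF arrays and lay below the filter level in most or all arrays of both inhibitor groups. For them the test between the inhibitor groups is therefore not read either.

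The median intensity lay between 40.4 and 42.6 on the 15 arrays, and between 56.9% and 57.8% of probe sets reached the level of 4. For beta-actin the log2 level of the control probe set at the 3' end minus that at the 5' end, a sign of RNA or labelling quality, was 2.11 to 2.19 with HGF + UO, 2.08 to 2.23 with HGF + PD, 1.38 to 1.56 with HGF and 2.17 to 2.29 in Control. Against a second 5' probe set it was 4.63 to 4.69 with HGF + UO, 4.41 to 4.63 with HGF + PD, 3.88 to 4.04 with HGF and 4.35 to 4.61 in Control. The same measure of GAPDH was 2.20 to 2.25 with HGF + UO, 1.93 to 2.07 with HGF + PD, 1.896 to 1.971 with HGF and 1.974 to 2.082 in Control. The actin measures thus moved with the HGF group, and that of GAPDH set the HGF + UO arrays above all others. By the GAPDH measure the HGF arrays also lay just below the Control arrays without overlap. Their part in the results below was not tested. Of the kidney epithelium markers, all 7 were measured and their summed intensity was 80910 to 88741 with HGF + UO, 74713 to 95390 with HGF + PD, 74771 to 91152 with HGF and 104562 to 114669 in Control. Of 9 fibroblast markers 4 (COL1A1, COL1A2, DCN and LUM) stayed below the level of 4 on all arrays, and the summed intensity of the list was 476 to 510 with HGF + UO, 466 to 478 with HGF + PD, 438 to 512 with HGF and 484 to 522 in Control. Of 5 endothelial markers 2 (VWF and TEK) stayed below that level, with sums of 421 to 464, 417 to 467, 455 to 518 and 449 to 490 in the same order of groups. Of 5 leukocyte markers ITGAM stayed below it, PTPRC reached 4.21 at most, and the sum was 105 to 116 with HGF + UO, 100.5 to 107 with HGF + PD, 130 to 373 with HGF and 114 to 118 in Control. Among these CD68, a lysosomal protein of macrophages and other cells, was at 6.28 with HGF and 3.25 in Control (log2 means). Its Control mean lay below the level of 4, so the size of this rise depends on the background estimate and is given as a description. Each array pools the RNA of a filter, so fewer cells of a type and less RNA per cell cannot be told apart.

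SNAI2 was 56.4-fold higher with HGF than in Control, and both inhibitor groups lay between those levels. Its probe set read 9.29, 8.64 and 8.68 on the HGF + UO arrays, 10.05, 9.83, 9.96 and 10.00 on the HGF + PD arrays, 13.90, 13.68, 13.92 and 13.93 on the HGF arrays, and 8.64, 7.79, 7.82 and 7.92 on the Control arrays. The HGF arrays stood above all 11 others, the HGF + PD arrays came next without overlap, and the lowest HGF + UO and the highest Control array both read 8.64. On the linear scale the intensity was 398 to 627 with HGF + UO, 910 to 1059 with HGF + PD, 13128 to 15580 with HGF and 221 to 398 in Control. The means were 8.87 ± 0.37, 9.96 ± 0.09, 13.86 ± 0.12 and 8.04 ± 0.40 in the same order of groups (SD, n = 3, 4, 4 and 4). The difference was 5.82 ± 0.18 for HGF against Control, -3.90 ± 0.18 for HGF + PD against HGF and -4.99 ± 0.19 for HGF + UO against HGF (log2, SE). Against Control it was 1.92 ± 0.18 with PD and 0.83 ± 0.19 with UO. On the log2 scale 33.0% of the HGF difference remained with PD and 14.2% with UO, which on the linear scale was 4.97% and 1.41%.

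**Figure D1:**
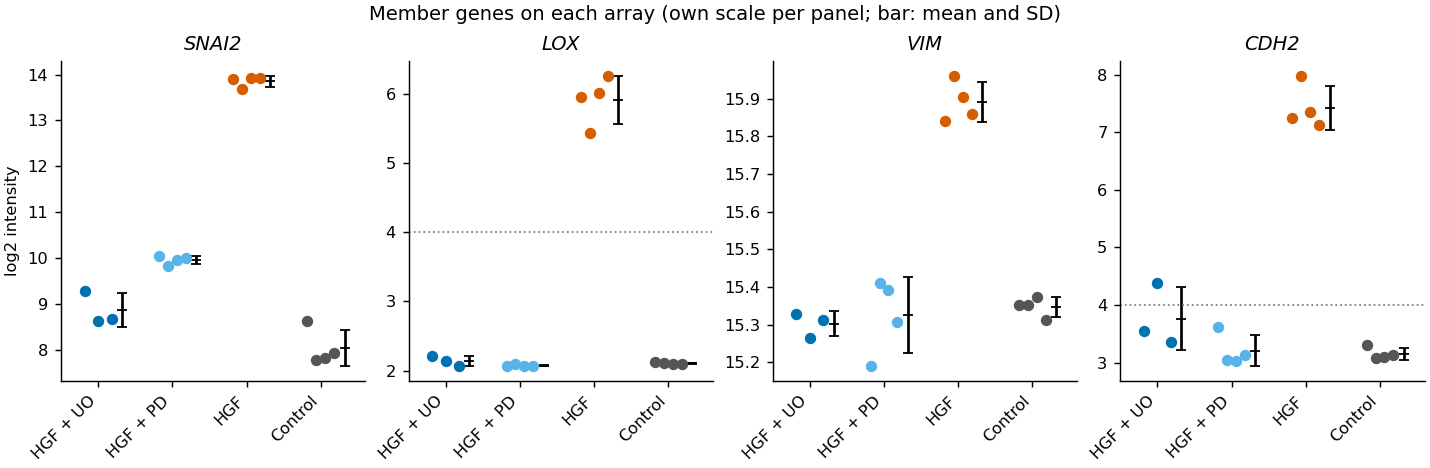
Log2 intensity of SNAI2, LOX, VIM and CDH2 on each array, by group, with the group mean and SD as a bar and the filter level of 4 as a dotted line in the LOX and CDH2 panels. Each panel has its own axis, and in all 4 the HGF arrays stand above the other 11. The share of all probe sets that do so was not counted. LOX and CDH2 passed the filter through those HGF arrays.

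The test between the inhibitor groups is read for SNAI2 and VIM, the 2 member genes above the filter level in both. With UO at 10 uM against PD at 50 uM SNAI2 fell by 1.09 ± 0.19 on the log2 scale (2.13-fold, 95% interval of the difference -1.50 to -0.68). It passed the limma test with an adjusted p = 0.00343 over all probe sets. All 3 HGF + UO arrays lay below all 4 HGF + PD arrays, and an exact two-sided permutation test gave p = 0.0286, the smallest that 3 against 4 arrays allow. The doses differ, so this compares the cultures as treated and not the compounds at a common dose. Of all 24904 probe sets tested 9.22% passed in this comparison, 6.66% as lower with UO. The share that separates these arrays without overlap was not counted. The GAPDH measure of RNA quality, 2.20 to 2.25 with HGF + UO and 1.93 to 2.07 with HGF + PD, separated the same arrays, and its part in the SNAI2 difference was not tested. Over 26 alternative settings the difference lay between -1.30 and -0.97, and the adjusted p between 0.000646 and 0.0235.

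LOX was read above the filter level on the HGF arrays alone. Its probe set read 2.21, 2.13 and 2.07 with HGF + UO, 2.07, 2.09, 2.07 and 2.06 with HGF + PD, 5.95, 5.43, 6.02 and 6.26 with HGF, and 2.12, 2.11, 2.09 and 2.10 in Control. The 11 arrays without a high value spanned 2.06 to 2.21, below the filter level, so their order was not read. The difference was 3.81 ± 0.12 for HGF against Control, -3.84 ± 0.12 for HGF + PD against HGF and -3.78 ± 0.13 for HGF + UO against HGF. These sizes depend on the background estimate: counted from the filter level of 4, HGF was at least 3.77-fold higher than each of the other groups.

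CDH2 was close to the floor in Control and clearly read with HGF on 1 of its 2 probe sets. The brighter set read 3.55, 4.38 and 3.36 with HGF + UO, 3.61, 3.05, 3.03 and 3.14 with HGF + PD, 7.25, 7.99, 7.35 and 7.13 with HGF, and 3.31, 3.07, 3.10 and 3.12 in Control. The HGF arrays stood above the other 11, and of those only the second HGF + UO array passed the level of 4. That array also had the highest median intensity of the 15 (42.6). The difference was 4.28 ± 0.22 for HGF against Control, -4.22 ± 0.22 for HGF + PD against HGF and -3.66 ± 0.24 for HGF + UO against HGF. Counted from the filter level, HGF was at least 10.8-fold higher than Control and HGF + PD and at least 9.85-fold higher than HGF + UO. The HGF + UO arrays lay above the Control arrays by a gap of 0.05 and overlapped the HGF + PD arrays. Without the second HGF + UO array the difference of HGF + UO from Control was 0.30 in place of 0.61, and with values below 4 set to 4 it was 0.13, so these groups were not ordered.

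The second CDH2 probe set gave no such pattern. It read 2.37 to 2.63 with HGF + UO, 2.32 to 2.37 with HGF + PD, 2.40 to 2.64 with HGF and 2.39 to 2.56 in Control, so that the HGF and Control arrays overlapped. The probe sets of CDH2 thus disagree, and the N-cadherin values rest on 1 of them. The stretch of transcript that each set reads was not looked up here.

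VIM was bright on every array and its differences were small. The probe set read 15.33, 15.27 and 15.31 with HGF + UO, 15.19, 15.41, 15.39 and 15.31 with HGF + PD, 15.84, 15.96, 15.91 and 15.86 with HGF, and 15.35, 15.35, 15.37 and 15.31 in Control. The HGF arrays stood above the others by at least 0.43, and the other 3 groups overlapped one another. HGF was 0.54 ± 0.04 above Control (1.46-fold), while the differences were -0.57 ± 0.04 for HGF + PD against HGF and -0.59 ± 0.05 for HGF + UO against HGF. Its intensity of 58713 to 63796 with HGF and 40683 to 42466 in Control lay in the upper part of a table whose highest value was 104385, and how far the scanner's range narrows such differences was not tested. HGF + UO differed from HGF + PD by -0.02 ± 0.05 (95% interval -0.12 to 0.07), which did not pass (adjusted p = 0.817, limma).

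**Figure D2:**
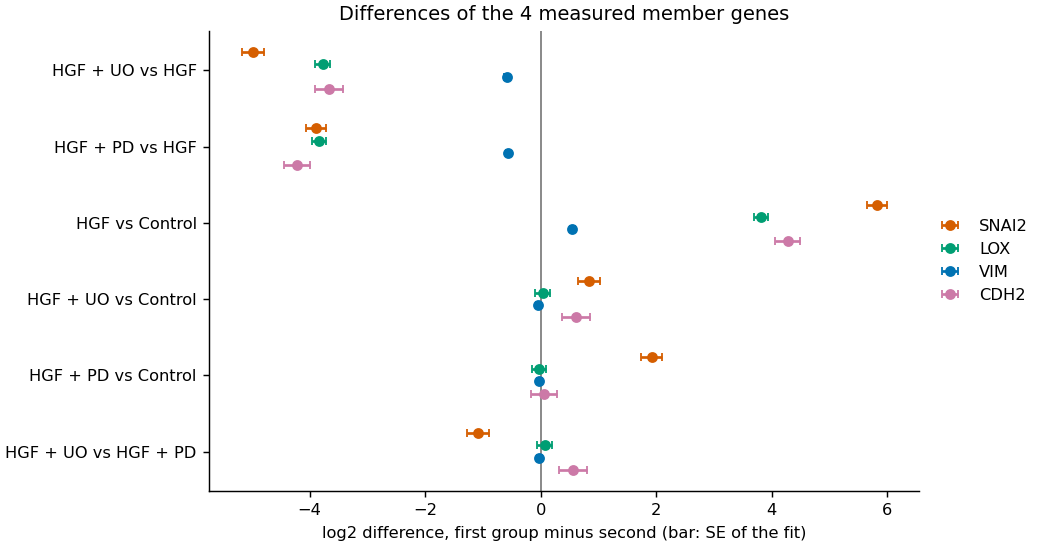
Log2 difference of SNAI2, LOX, VIM and CDH2 in each of 6 comparisons (first group minus second), with the SE of the fit as a bar. SNAI2 lies 0.83 (UO) and 1.92 (PD) above Control and VIM within 0.05 of it, while the LOX and CDH2 differences among Control and the inhibitor groups are between values below or near the filter level and carry no order.

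Set side by side, the 4 genes shared the highest level with HGF. LOX and CDH2 passed the filter through their HGF arrays, so for them a high HGF level was a condition of being read. Of all probe sets tested 26.3% passed as higher with HGF than in Control. The share that sets the HGF arrays above all others was not counted. How near to Control a gene lay with an inhibitor could be read for SNAI2 and VIM, whose values stood above the filter level on every array. With UO SNAI2 differed from Control by 0.83 and VIM by -0.04, and with PD SNAI2 differed by 1.92 and VIM by -0.02. In SNAI2 the order of the groups was HGF, HGF + PD, then HGF + UO and Control, which touched. In VIM the HGF group was set apart and the other 3 overlapped. LOX lay below the filter level on all 11 arrays other than HGF, and CDH2 on all but 1 of them, so a remaining HGF effect below that level was not detectable.

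ZEB1 stayed below the filter on all 5 of its probe sets and was not tested. On 3 of them no array exceeded 2.97. Set 1, the brightest, read 3.05 to 3.23 with HGF + UO, 3.07 to 3.19 with HGF + PD, 4.05, 3.45, 3.53 and 3.44 with HGF and 3.20 to 3.22 in Control. Set 3 read 2.30 to 2.40 with HGF + UO, 2.29 to 2.32 with HGF + PD, 3.63, 3.23, 2.70 and 5.12 with HGF and 2.33 to 2.36 in Control. On both sets every HGF array lay above every other array, but 1 HGF array on each passed the level of 4. In a fit without the filter their HGF against Control differences were 0.41 ± 0.10 and 1.32 ± 0.35 (log2, SE). On the other 3 sets these differences lay between 0.01 and 0.06. The low HGF values and the disagreement of the probe sets leave the ZEB1 level undetermined on these arrays.

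**Figure D3:**
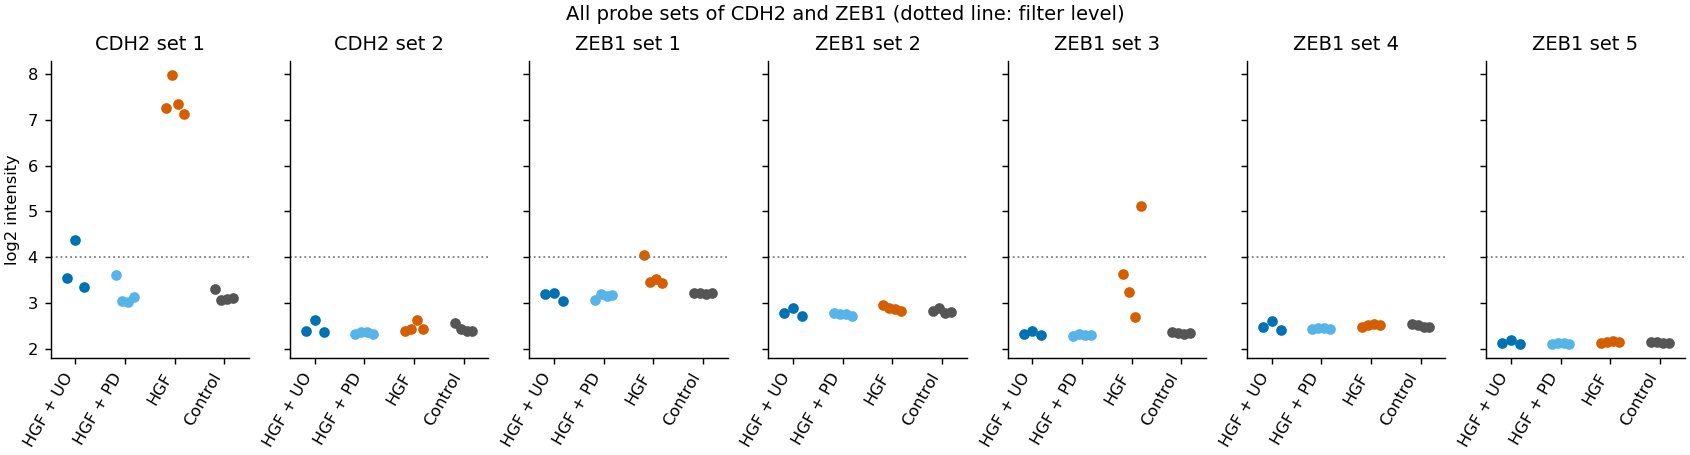
Log2 intensity of both CDH2 and all 5 ZEB1 probe sets on each array, numbered from the highest to the lowest mean, with the filter level of 4 dotted. CDH2 set 1 separates the HGF arrays above 7, while CDH2 set 2 and ZEB1 sets 2, 4 and 5 stay below 3 on every array.

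Genes whose pattern over the 15 arrays was most like that of SNAI2 were CNN3, an actin-binding calponin (Pearson r = 0.998), SYNGR1, a vesicle membrane protein (0.996), the sterol demethylase CYP51A1 (0.994), EIF4EBP1, a repressor of translation initiation (0.993), and PPARG, a nuclear receptor (0.993). All 5 were highest with HGF and higher with PD than with UO, an order that their choice by likeness to SNAI2 favours. CNN3 lay 0.30 above Control with UO, 0.70 with PD and 2.26 with HGF. EIF4EBP1 lay 0.48, 0.95 and 3.13 above Control in the same order. Over the 11 arrays other than HGF, which were among those used to choose them, the correlation with SNAI2 was 0.945 to 0.980 for the 5 genes. Over all 15 arrays 6.65% of probe sets had an r of at least 0.9 with SNAI2, so high correlations are common here, and all points share the 4 groups.

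The nearest genes to LOX were PROCR, MMP13 and INKA1 (r = 0.999 each), the nearest to VIM were RNH1, CDC25B and FLNA (0.987 each), and the nearest to CDH2 were SLC38A1, SLC36A4 and CAMSAP2 (0.992, 0.990 and 0.990). MMP13 is a collagenase, PROCR the endothelial protein C receptor, FLNA the actin cross-linker filamin A and CDC25B a cell cycle phosphatase. SLC38A1 and SLC36A4 are amino acid transporters and CAMSAP2 binds microtubule minus ends. PROCR and the MMP13 probe set, like LOX, averaged below 2.2 in the other 3 groups (1.96 to 1.99 and 2.11 to 2.16), with 5.01 and 9.16 on the HGF arrays. Over the 11 arrays other than HGF the r to LOX was 0.521 for PROCR, 0.517 for MMP13 and 0.360 for INKA1, so the high values rest on the 4 HGF arrays. In the same way r was 0.705 to 0.767 for the 3 genes nearest to VIM and 0.759 to 0.871 for those nearest to CDH2. An r of at least 0.9 was reached by 8.18% of probe sets with LOX, 6.70% with VIM and 6.21% with CDH2.

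**Figure D4:**
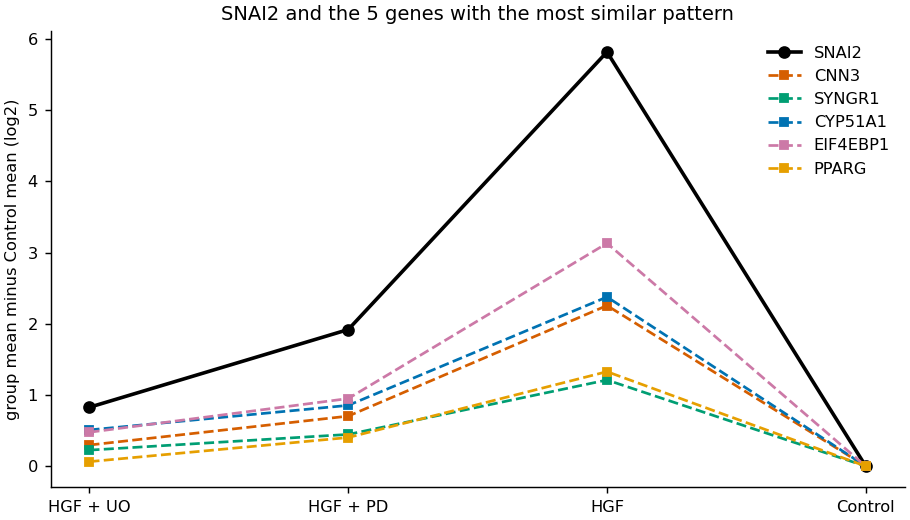
Group mean minus Control mean (log2) of SNAI2 and of the 5 genes with the highest Pearson r to it over 15 arrays. SNAI2 reaches 5.82 with HGF and the others 1.21 to 3.13, and each is higher with PD than with UO, an order that the choice by r favours.

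Related genes were taken from lists that leave the 5 members out, with each gene read on its brightest probe set. The test is limma's moderated test with Benjamini-Hochberg adjustment over all 24904 probe sets. The lists were chosen with earlier results of these data known, and genes are named for large differences or after their values were seen. The p-values of named genes below therefore describe them and are not independent tests. For HGF against Control 55.6% of these passed, 26.3% higher and 29.2% lower. For HGF + PD against HGF 55.4% passed, 30.3% higher and 25.1% lower, and for HGF + UO against HGF 52.4%, with 27.2% higher and 25.2% lower. For HGF + UO against HGF + PD 2.55% were higher and 6.66% lower, while 34.4% passed for HGF + PD against Control and 22.3% for HGF + UO against Control. The median difference over all probe sets was -0.02, -0.01, 0.00496 and -0.00456 in these 4 comparisons.

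The other transition factors showed no change past the threshold. Of 13 listed, 10 had a probe set and 3 were measured, SNAI1, TCF3 and PRRX1. SNAI1, the Snail repressor closest to SNAI2 in function, differed by 0.03 between HGF (4.89) and Control (4.86). Its highest value on any array was 4.90, near the filter level, and whether its transcript was detected at all was not tested. Of the 3, 0 passed limma's test in any of the 6 comparisons, and 0 had an unadjusted p under 0.05. For HGF against Control their differences lay between -0.15 and 0.05, with TCF3 at -0.15 (adjusted p = 0.0973). Without HGF replicate 4, 1 was lower with HGF than in Control, and without the filter 1 was lower with PD than with HGF. SNAI3, ZEB2, TWIST1, TWIST2, TCF4, FOXC2 and KLF8 stayed below 3.6 on every array.

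Of 8 measured genes whose proteins SNAI and ZEB factors recruit, 2 were higher with HGF (AJUBA and HDAC1) and 2 lower (CTBP1 and HDAC2). These shares were close to those of all probe sets, and the median difference was -0.02. AJUBA, a LIM protein that bridges Snail factors to modifying enzymes, rose by 0.58 ± 0.10 (adjusted p = 0.000122), and CTBP1, a corepressor of ZEB factors, fell by 0.65 ± 0.19 (adjusted p = 0.00996). The deacetylase HDAC1 rose by 0.24 ± 0.05 and HDAC2 fell by 0.37 ± 0.05. Against HGF, 3 were higher and 3 lower with PD, and 2 higher and 3 lower with UO. CTBP1 rose by 0.87 ± 0.19 with PD and by 0.73 ± 0.21 with UO. Between the inhibitors 1 was higher with UO and 0 lower: AJUBA rose by 0.39 ± 0.10 with UO against PD (adjusted p = 0.0339), a call lost in 9 alternatives. KDM1A, the demethylase that binds the SNAG domain of Snail factors, differed by 0.04 for HGF against Control (adjusted p = 0.708).

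Of the mesenchymal and matrix genes, 7 of 14 were measured. With HGF 3 of these were higher and 0 lower, with a median difference of 0.15. S100A4, a calcium-binding protein of motile cells, had means of 12.59 with HGF and 10.33 in Control, a rise of 2.26 ± 0.09 (adjusted p = 2.88e-11). CD44, the hyaluronan receptor, rose by 1.52 ± 0.10, and by 1.77 and 1.82 on its other probe sets. FN1, fibronectin, rose by 0.96 ± 0.14 (0.17 to 1.85 on 3 others, of which 2 passed). With PD against HGF 4 were lower and 0 higher, and with UO 3 were lower and 0 higher. S100A4 fell by 1.73 ± 0.09 with PD and by 2.70 ± 0.09 with UO. Between the inhibitors 1 of the 7 was lower with UO and 0 higher, counts that ranged from 1 to 2 and from 0 to 2 over the alternatives. S100A4 fell by 0.97 ± 0.09 with UO against PD (adjusted p = 6.41e-05), the same direction as SNAI2. The median difference of the 7 was 0.05 and the highest 0.50, both in the opposite direction. In this comparison 5 of the 7 had an unadjusted p under 0.05 in limma's test. TAGLN and COL3A1 differed by 0.15 and 0.08 between HGF and Control without passing. ACTA2, TNC, COL1A1, COL1A2 and POSTN stayed below 3.2 on all arrays.

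Of the LOX relatives, LOXL2 and LOXL4 were measured. LOXL2, which also oxidises lysines of collagen, rose by 0.84 ± 0.08 with HGF (means 11.93 with HGF and 11.09 in Control, adjusted p = 6.45e-07). Unlike LOX, it was not lower with an inhibitor. It differed by 0.04 with PD against HGF (adjusted p = 0.690) and rose by 0.29 ± 0.09 with UO against HGF (adjusted p = 0.0133), a call lost without HGF + UO replicate 1. Against Control it rose by 0.88 ± 0.08 with PD and 1.13 ± 0.09 with UO. On its other 3 probe sets the difference between HGF and Control was 0.07 to 0.81, of which 2 passed. LOXL4 differed by -0.07 for HGF against Control (adjusted p = 0.222).

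Among 7 measured cadherins 3 were higher and 2 lower with HGF, with a median of -0.03. CDH17, the liver-intestine cadherin, rose by 4.17 ± 0.08 (12.41 with HGF and 8.23 in Control, adjusted p = 4.15e-14), and with the inhibitors it fell by 4.19 ± 0.08 (PD) and 4.25 ± 0.09 (UO). CDH16, the kidney-specific cadherin, fell by 3.00 ± 0.19 with HGF (7.77 with HGF and 10.77 in Control), while its other 2 probe sets read -2.10 and 0.50. CDH1, E-cadherin, was at 9.14 with HGF + UO, 9.11 with HGF + PD, 10.40 with HGF and 9.80 in Control. CDH1 RNA was thus highest in the group where SNAI2 RNA was highest, and an action of SNAI2 on CDH1 was not tested. CDH3, P-cadherin, was 0.83 ± 0.13 higher with UO than with PD (adjusted p = 0.00166), and CDH6 0.41 ± 0.05 higher (adjusted p = 0.000669), the opposite of SNAI2. The second CDH3 probe set read 0.07 in that comparison, and the other 3 of CDH6 read 0.18 to 0.40, of which 1 passed. With PD against HGF 4 cadherins were lower and 1 higher, and with UO 3 were lower and 1 higher.

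Of 11 measured relatives and linkers of vimentin, 2 were higher and 1 lower with HGF, with a median of -0.03. The linker PLEC (plectin) rose by 1.68 ± 0.18 and the nuclear lamin LMNA by 1.29 ± 0.07, while the keratin KRT18 fell by 0.48 ± 0.07. A second PLEC probe set read 0.02. KRT8, the partner of KRT18, differed by -0.01 (adjusted p = 0.957). With PD against HGF 5 of these genes were lower and 0 higher, and with UO likewise 5 and 0. KRT8 fell by 0.49 ± 0.07 with PD and by 0.68 ± 0.07 with UO, and PLEC by 2.37 ± 0.18 and 2.32 ± 0.19.

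The epithelial genes that SNAI or ZEB factors are known to repress did not move one way with HGF. Of 20 measured, CDH1 among them, 9 were lower and 4 higher, with a median difference of -0.14. Of all probe sets 29.2% were lower and 26.3% higher. The tricellular junction protein MARVELD2 fell by 1.21 ± 0.12, the epithelial transcription factor ELF3 by 0.98 ± 0.13, occludin (OCLN) by 0.78 ± 0.06 and EPCAM by 0.73 ± 0.11. CLDN4, a barrier claudin, rose by 1.04 ± 0.07, the desmosomal linker DSP by 0.80 ± 0.10, CDH1 by 0.60 ± 0.09 and CLDN3 by 0.34 ± 0.11. The splicing regulator ESRP1 differed by 0.03 (adjusted p = 0.835), and ESRP2 fell by 0.33 ± 0.13. With PD against HGF 8 were lower and 4 higher, and with UO 6 were lower and 5 higher. EPCAM rose by 0.56 ± 0.11 with PD and by 0.72 ± 0.11 with UO, OCLN by 0.54 ± 0.06 and 0.52 ± 0.07, and MARVELD2 by 0.93 ± 0.12 and 1.20 ± 0.13. CLDN4 fell by 2.04 ± 0.07 with PD and by 2.11 ± 0.08 with UO, and DSP by 1.23 ± 0.10 and 1.16 ± 0.11. Set against Control, the list did move one way in the inhibitor groups. With PD 11 were lower and 0 higher than in Control (median -0.29), and with UO 10 were lower and 0 higher (median -0.25). Of all probe sets 34.4% passed in either direction for PD against Control and 22.3% for UO. Between UO and PD 0 of the 20 passed limma's test and 1 had an unadjusted p under 0.05.

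**Figure D5:**
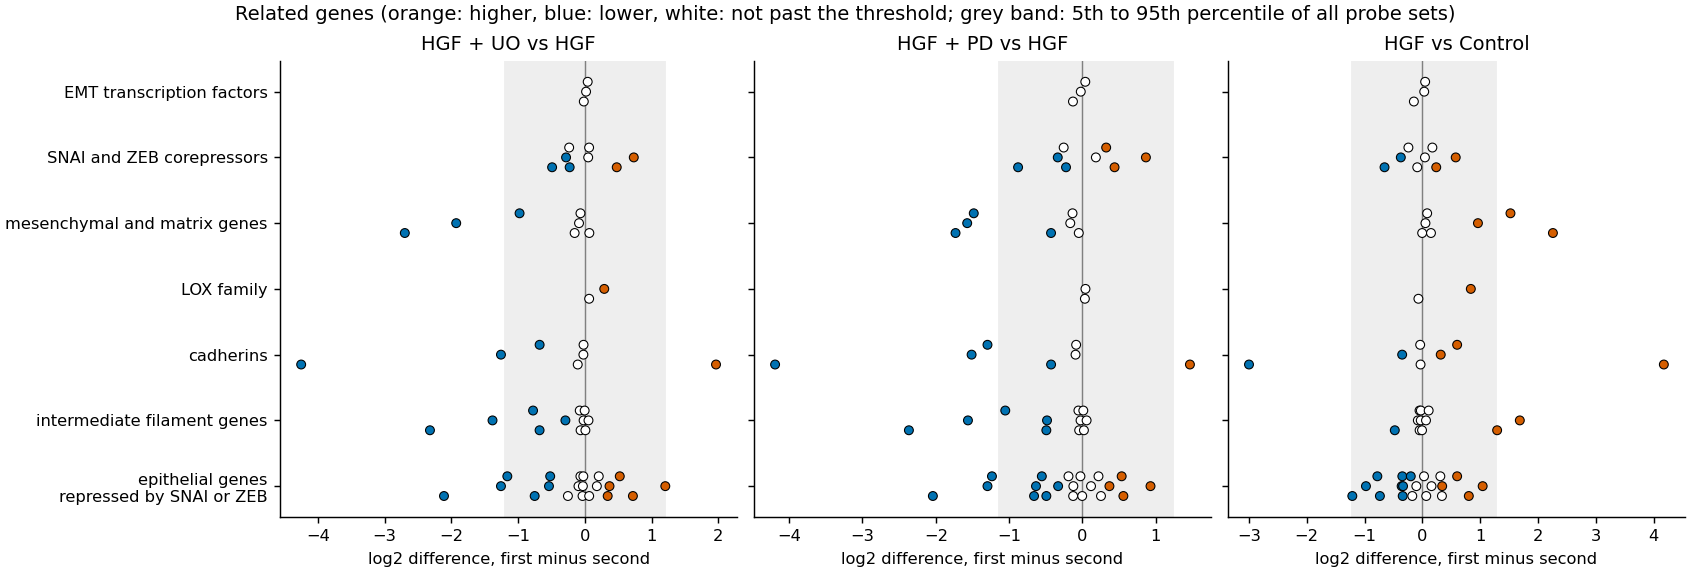
Log2 differences of the measured genes of 7 related lists in 3 comparisons, with genes higher (orange), lower (blue) and not past the threshold (white). Each panel has its own axis. The grey band runs from the 5th to the 95th percentile of all 24904 probe sets, and the genes farthest out are CDH17 (-4.25 for UO against HGF, -4.19 for PD against HGF, 4.17 for HGF against Control), CDH16 for HGF against Control and S100A4 (-2.70 for UO against HGF).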

How the data were processed

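The 15 samples are Affymetrix canine arrays, each of biotin-labelled cRNA made from total RNA. The authors deposited linear intensity values per probe set, which the submitters' processing notes name as GCRMA output, with no version. That method removes an estimated background, so dim probe sets lie near a floor and their folds depend on it. The table held 43035 probe sets, of which 111 controls were left out of tests. Log2 was taken with no further scaling of the deposited intensity values. Probe sets at log2 of at least 4 on at least 3 arrays were kept (24904, 58.0%). The platform annotation named the genes and gives 29254 probe sets 1 symbol, 439 several and leaves 13231 unlisted. A gene was read on its brightest probe set.

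Differences were fitted with limma 3.58.1 in R 4.3.3 (lmFit with 1 mean per group over all arrays, eBayes with trend). P-values were adjusted by Benjamini-Hochberg across the kept probe sets, and a call is an adjusted p under 0.05. The number of arrays limits the precision. Replicates are labelled biological, with no word on separate cultures, so the spread that p-values rest on may be technical. No arrays were near-identical (highest r = 0.998).

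The members and lists were chosen with earlier results of these data known. Of each list the text names up to 4 genes each way with the largest HGF against Control difference past the threshold, and other list members were added after their values were seen. Likeness is Pearson's r over the arrays. The alternatives tried were other filters, a floor, a pseudocount of 16, quantile and median scaling, no variance trend, fits of 2 groups, a replicate block, each array left out and gene means over probe sets. Sequences and genome positions were not used here.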

Additional observations from a re-analysis of the deposited data

Results flagged for a closer look

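In 3 of 30 checks (10 probe sets in the 3 groups of 4 arrays) an array stood apart from the others of its group by more than Dixon's 95% critical value, and chance alone gives about 1 in 20. SNAI2 read 8.64 on the first Control array, against 7.79 to 7.92 on the other 3. Without that array the SNAI2 difference of HGF + UO from Control was 1.03 in place of 0.83. SNAI2 also read 13.68 on the second HGF array, against 13.90 to 13.93 on the others, a gap that is small beside the difference of 5.82 from Control. The brightest ZEB1 probe set, below the filter, read 4.05 on the first HGF array, against 3.44 to 3.53 on the others.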

How the results depend on the processing

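Over 26 alternatives (25 for LOX, which a filter at log2 of at least 6 removed) SNAI2 kept its sign in all 6 comparisons and its side of the threshold between UO and PD. The number of probe sets called between UO and PD, 2295, was 997 in a fit of those 7 arrays alone, 1858 with the replicate block, and 1207 to 2923 with 1 array left out (1481, 1252 and 1472 without HGF + UO replicates 1, 2 and 3, 1207 without HGF + PD replicate 4). No other count of calls moved by over 1.5 times. With log2 values below 4 set to 4, the HGF against Control difference was 1.92 for LOX and 3.43 for CDH2, and with a pseudocount of 16 it was 1.92 and 2.92. With the mean of both CDH2 probe sets, an alternative chosen after seeing the data, it was 2.16. Of the counts for the lists, that of corepressors higher with UO than with PD (AJUBA) was 1 and ranged from 0 to 1, that of epithelial genes higher with UO than with HGF was 5 and ranged from 3 to 6, and those of mesenchymal genes with UO against PD were 0 higher (0 to 2) and 1 lower (1 to 2). The count of LOX relatives higher with UO than with HGF was 1 and 0 without HGF + UO replicate 1, and those of transition factors lower with HGF than in Control and with PD than with HGF were 0 and 1 in 1 alternative each. The cause of these changes was not tested. Arrays of the same replicate number had correlations of deviations from -0.25 to 0.41 over 21 pairs, 8 of them over 0.1. Of the 15 arrays 5 correlated best with one of their own number. These values do not settle whether replicate numbers pair the arrays. With the replicate number as a block the SNAI2 difference between UO and PD was -1.09 (adjusted p = 0.00212).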
